A study of Caenorhabditis elegans with 2 samples.

Results

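The X chromosome of Caenorhabditis elegans carried 276 of the 612 nuclear genes annotated as tRNA genes, and 336 lay on the autosomes. All genes of that class on X in the WBcel235 annotation (the assembly that ce11 also names) were taken, and none was dropped. Each gene was scored by the nearest summit, the single position of highest enrichment in a bound region, within 500 bp of the gene body. X made up 17.7% of the nuclear genome's length and held 45.1% of its tRNA genes, or 15.6 per Mb against 4.07 per Mb on the autosomes.

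NPAX-4, a paired-domain transcription factor, was measured by chromatin immunoprecipitation and sequencing (ChIP-seq). The 2 samples were biological replicates of a single group of whole hermaphrodite late embryos, taken 4 h after synchronisation by bleaching. The strain, OP493, had the genotype unc-119(tm4063) III; wgIs493, where wgIs493 is a transgene that expresses NPAX-4 with a C-terminal GFP-FLAG tag, and the antibody recognised GFP. The unc-119 allele and the transgene were present in both samples, the labels do not name the promoter behind the tagged protein, and no second condition was present. In whole embryos, binding in fewer cells and weaker binding in every cell cannot be told apart.

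A tRNA gene is transcribed by RNA polymerase III from a promoter that lies inside the gene. Its A box and B box are bound by TFIIIC, which places TFIIIB just upstream of the start, and a run of T residues after the gene ends transcription. Worm genomes hold many identical copies of most tRNA genes, so the same mature tRNA can come from copies with different neighbours. The charged amino acid names the isotype (tRNA-Leu, tRNA-His).

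The first sequence shown is the X-linked tRNA gene under the highest peak. C04A11.t1 (WBGene00000308, tRNA-Leu, chrX:13665555-13665673, plus strand) is 119 bp long with a 35 bp intron of its own, and no identical copy exists among nuclear tRNA genes. Its 50 bp on each side are printed (chrX:13665505-13665723, ce11), with the exons in capitals.
C04A11.t1: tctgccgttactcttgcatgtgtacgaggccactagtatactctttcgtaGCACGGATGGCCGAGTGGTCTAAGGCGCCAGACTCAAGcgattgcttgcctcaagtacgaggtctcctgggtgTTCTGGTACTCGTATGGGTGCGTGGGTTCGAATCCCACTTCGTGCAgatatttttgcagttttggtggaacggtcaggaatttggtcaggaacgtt

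The next pair shows 2 tRNA-Ala genes that share 1 peak. F15G9.t1 (WBGene00014333, chrX:9743589-9743660) and F15G9.t2 (WBGene00014334, chrX:9743747-9743818) lie on the plus strand, 86 bp apart, in an intron of him-4, which encodes the extracellular matrix protein hemicentin. Both genes are in capitals, and the summit fell on base 92 of the printed stretch, in the spacer after the first gene.
F15G9.t1 to F15G9.t2: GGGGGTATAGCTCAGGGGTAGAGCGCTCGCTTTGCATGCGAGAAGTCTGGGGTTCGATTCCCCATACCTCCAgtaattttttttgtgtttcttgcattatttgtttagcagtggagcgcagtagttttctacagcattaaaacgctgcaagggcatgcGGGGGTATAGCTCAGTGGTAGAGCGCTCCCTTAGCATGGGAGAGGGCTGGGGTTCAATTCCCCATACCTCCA

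The third sequence is a tRNA-Leu gene that X carries in 9 identical copies, with none on an autosome, and that had a peak at some copies only. It is read from the minus strand at C04E7.t1 (chrX:353255-353336, ce11), with the B box word GGTTCGA in capitals.
tRNA-Leu, 9 copies: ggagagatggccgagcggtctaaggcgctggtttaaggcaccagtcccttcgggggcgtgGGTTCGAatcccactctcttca
The 50 bp before 4 of these copies are shown because the copies differ there and not in the gene, with the first bases of the gene in capitals. The first 2 copies had a peak, with a GC content of 36 and 32% in these 50 bp, and the last 2 had none, with 32 and 38%. The values of the last 2 were the highest among the copies without a peak, which reached down to 12%.
C04E7.t1 (chrX:353329-353386, minus strand): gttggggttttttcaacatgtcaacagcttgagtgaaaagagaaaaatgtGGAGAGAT
F14B8.t1 (chrX:6903188-6903245, minus strand): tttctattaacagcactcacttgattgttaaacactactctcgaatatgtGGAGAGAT
F08F1.t1 (chrX:8419488-8419545, minus strand): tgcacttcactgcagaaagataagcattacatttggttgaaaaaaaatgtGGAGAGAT
C48C5.t4 (chrX:8955994-8956051, minus strand): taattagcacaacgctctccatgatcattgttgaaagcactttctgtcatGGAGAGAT

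The last sequence is the tRNA-His gene that forms a run of 6 identical genes with no peak. It is printed from F28H6.t2 (chrX:14135045-14135116, plus strand, ce11), again with GGTTCGA in capitals.
tRNA-His, F28H6 run: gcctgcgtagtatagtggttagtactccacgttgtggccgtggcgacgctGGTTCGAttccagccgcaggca

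NPAX-4 peaks lay at 70 of the 276 X-linked tRNA genes, or 25.4% with a 95% exact Clopper-Pearson interval of 20.3 to 30.9%. A peak here is a region that passed the authors' threshold on the irreproducible discovery rate (IDR), a measure of how well replicates rank regions alike. Among all nuclear tRNA genes 23% had a peak, and among the 46278 other nuclear genes 1.32% did. Those other genes were longer, with a median of 207 bp against 72 bp for X-linked tRNA genes, so more sequence was searched at each. The autosomal share was 71 of 336 (21.1%, 16.9 to 25.9%), and the X-linked share exceeded it by 4.23 percentage points (−2.69 to 11.2). That interval includes 0. With only the 177 regions of higher signal, the excess was 8.63 points (3.20 to 14.2), so for the stronger regions the interval excludes 0. With each summit counted for 1 gene, the excess was 1.73 points (−4.87 to 8.45), and the interval again includes 0. The intervals run over genes and cover counting error only, and genes that share a peak are not independent.

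The longer, relaxed lists gave shares near those of all tRNA genes. In the joint relaxed list, made from both replicates together, 162 X-linked genes (58.7%) had a summit, against 57.7% of all nuclear tRNA genes and 22.1% of other genes. Replicate 1 alone gave 162 genes, where 57.5% of all tRNA genes and 30.7% of other genes had a summit. Replicate 2 alone gave 164 (59.4%), where the background was 59.8% of tRNA genes and 30.5% of other genes. At least 1 of the 4 lists had a summit at 203 X-linked genes (73.6%), and the other X-linked genes had none in any list.

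The 70 genes lay at 59 distinct peaks, since close neighbours can share one. Of the 79 X-linked regions in the IDR-thresholded list, those 59 were the nearest summit to a tRNA gene, and 20 were not. The summit of each of the 59 peaks was within 40 bp of its closest X-linked tRNA gene, with a median of 0 bp. Of the 59 summits, 4 lay between 500 bp before and 100 bp after the 5′ end of a protein-coding gene. None was within 500 bp of a snoRNA, snRNA, miRNA or piRNA gene. These counts were not set against other regions of the list, so whether they are low was not tested. The 11 genes with a summit over 50 bp away all shared it with a nearer tRNA gene, the farthest being F41D9.t2 (tRNA-Arg) at 323 bp.

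In the IDR-thresholded list, the summit lay inside the gene more often, by count, than before or after it. Of the 70 genes, 41 (58.6%, 46.2 to 70.2%) had the summit between their ends, 29 of them in the first and 12 in the second part when the gene was split at its middle. The summit preceded the gene at 19 and followed it at 10. The median position was 14 bp after the 5′ end, and it was 37 bp for the 71 autosomal genes. At the 92 X-linked genes with a summit in the joint list only, 33 (35.9%, 26.1 to 46.5%) had it inside the gene.

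**Figure D1:**
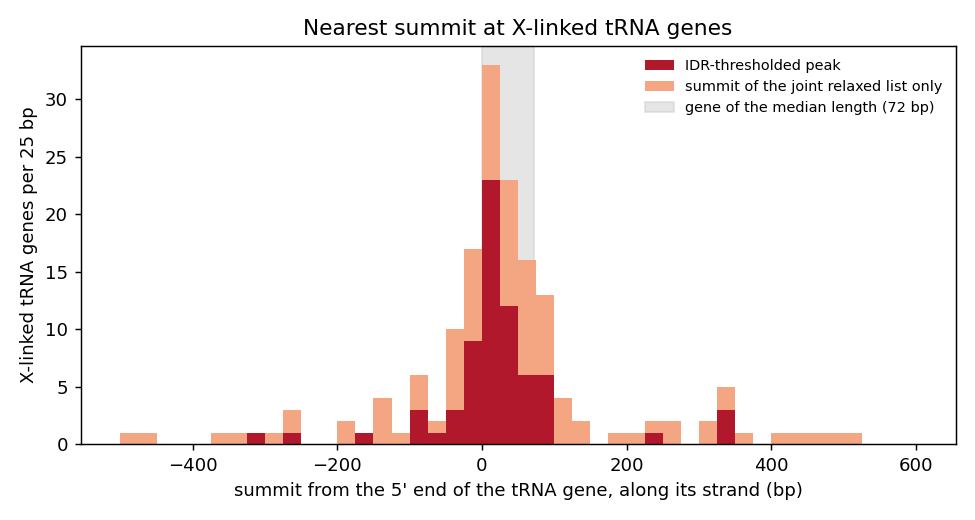
Position of the nearest summit along the strand of each X-linked tRNA gene, in bp from its 5′ end (x axis), against the number of genes per 25 bp (y axis, bars stacked); red bars are the 70 genes with an IDR-thresholded peak and light bars the 92 genes with a summit of the joint relaxed list only. The grey band marks a gene of the median length of 72 bp, and the red bars are highest just after the 5′ end.

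Peaks at X-linked tRNA genes ranked higher in the list than those at autosomal ones. Signal, the authors' value per region on a scale that is not stated, had a median of 135 over the 59 X-linked peaks (79.3 to 328). The 66 peaks at autosomal tRNA genes had a median of 107 (76.4 to 239), and the 20 other X-linked regions one of 87.7. The median rank among the 354 regions, with 1 the highest, was 129 for X-linked and 204.5 for autosomal tRNA peaks. Counted by gene, the X-linked median was 1.23 times the autosomal one. With only the 177 regions of higher signal the ratio was 1.07. The list holds X-linked and autosomal genes of the same library pair, and the difference in signal was not tested. Each replicate was also taken alone, by its 354 highest regions and the nearest summit among them within 500 bp. The medians were 73.6 on X and 58.6 on the autosomes in replicate 1, and 63.8 and 56.2 in replicate 2.

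The gene with the highest peak was C04A11.t1, the tRNA-Leu gene printed first. Its signal was 328 in the joint list, 187 in replicate 1 and 134.5 in replicate 2, with ranks of 11, 7 and 23. Its summits were 13 to 17 bp after the 5′ end in all 3 lists. The highest autosomal tRNA gene was F57F5.t1 (tRNA-Ile) at 239, ahead of T21B4.t1 (tRNA-Ile) at 222 and F56F3.t1 (tRNA-Arg) at 206.

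The shared peak of F15G9.t1 and F15G9.t2 followed with a signal of 293. Around F15G9.t1 the replicates gave 130 and 174. At F15G9.t2 replicate 2 instead had a nearer summit of 35.7, which lay 66 bp after its 3′ end. The joint list also had a nearer summit there, of 68.7, which did not pass the threshold. W03G11.t1 (tRNA-Lys, chrX:12106147-12106219) was a lone gene with 264, from 137 in replicate 1 and 124 in replicate 2. M02F4.t2 (tRNA-Glu) and M02F4.t1 (tRNA-Gly) face away from each other 116 bp apart and shared a peak of 247 that lay between them. Replicate 1 placed a single summit of 128 at both genes, while replicate 2 gave 121 nearest to M02F4.t2 and 47.1 nearest to M02F4.t1.

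The other 4 of the 10 highest shared their peak with no other tRNA gene. F41D9.t3 (tRNA-Asn), in an intron of sulp-3, a gene of the sulfate permease family, had 239 in the joint list and 143 and 97.0 in the replicates. R04D3.t2 (tRNA-Val) had 234, with 106 and 126. C06G1.t1 (tRNA-His) had 229.5, with 116 and 114. C42D8.t1 (tRNA-Ile) had 222, with 117 and 103. The replicate lists were made separately, so their levels are not compared with each other.

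At the other end, the lowest peaks were 79.3, shared by T06H11.t2 and T06H11.t3 (both tRNA-Arg), and 80.9 at F52H2.t1 (tRNA-Asp). F52H2.t1 lies in an intron of aat-3, an amino acid transporter gene, and its replicate values were 58.1 and 24.2. Just outside the IDR-thresholded list were T03G6.t1 (tRNA-Gly) at 76.4, F59C12.t2 (tRNA-Asp) at 76.3 and F47E1.t1 (tRNA-Gln) at 73.8. F59C12.t2 had 51.2 in replicate 1, below F52H2.t1, and 42.4 in replicate 2, above it, so genes on either side of the threshold were not ordered alike by the replicates.

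All 70 genes with a peak had a summit in both replicate lists. Their summits in the 2 replicates lay a median of 33 bp apart. One of the 354 highest regions of a replicate had its summit within 500 bp of 67 of the 70 genes in replicate 1, of 63 in replicate 2 and of 60 in both. The IDR-thresholded list was derived from these replicates, so this recovery is not independent of how the genes were called. Of the 92 genes in the joint list only, 54 had a summit in both replicates. Of the 114 genes in neither list, 4 did.

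The order of signal was partly shared between replicates. Spearman's rho between the replicate signals was 0.82 over the 128 X-linked genes with a summit in both lists. Within that set it was 0.66 over the 70 genes with a peak and 0.36 over the 58 genes with none. The 2 subsets were divided by a threshold that rests on the same replicates. These values describe genes that share a library and in part a summit, and carry no test. The lowest replicate 1 signal at the nearest summit among the 70 was 21.1, at F12D9.t5 (tRNA-Arg), which had 45.5 in replicate 2. F12D9.t5 was singled out after its values were seen.

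**Figure D2:**
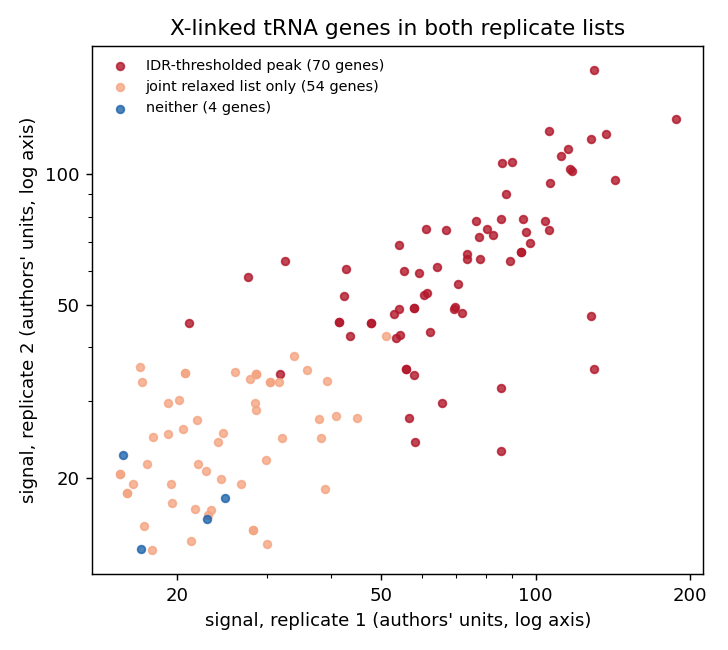
Signal of the nearest summit in replicate 1 (x axis) and replicate 2 (y axis), both on log axes in the authors' units, for X-linked tRNA genes with a summit in both replicate lists. Each point is 1 gene; the 70 genes with an IDR-thresholded peak (red) lie mostly above and to the right of the 54 with a joint-list summit only (light) and the 4 with neither (blue).

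Every one of the 20 isotypes had a peak at 1 or more X-linked genes. Counts were highest for tRNA-Glu (8 of 23 genes, highest at M02F4.t2), tRNA-Pro (7 of 20, highest F46G11.t2 at 150.5) and tRNA-Arg (6 of 27, highest F28H6.t1 at 185). tRNA-Leu had 6 of 17, led by C04A11.t1, and tRNA-Ser had 6 of 18, led by E03E2.t1 at 181 in an intron of cat-1, the vesicular monoamine transporter gene. tRNA-Ala had 5 of 13, led by F15G9.t1, and tRNA-Gly 5 of 20, led by M02F4.t1.

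Isotypes with 3 genes at a peak were tRNA-Asp (of 12), tRNA-Cys (of 7), tRNA-Ile (of 13), tRNA-Thr (of 14) and tRNA-Tyr (of 8). Their highest members were F38G1.t2 at 219 in an intron of egl-17, which encodes a fibroblast growth factor, F42D1.t1 at 106, C42D8.t1, R01H5.t1 at 204 and C02B4.t2 at 195. tRNA-Asn had 2 of 6, led by F41D9.t3, tRNA-Lys 2 of 18, led by W03G11.t1, and tRNA-Val 2 of 14, led by R04D3.t2. tRNA-Phe had 2 of 6, led by T28B4.t1 at 170. Single genes had a peak for tRNA-Gln (of 15, R04A9.t1 at 156), tRNA-His (of 9, C06G1.t1), tRNA-Met (of 8, C02F12.t1 at 176.5) and tRNA-Trp (of 5, sup-7 at 83.0). The 3 X-linked genes with no isotype in RefSeq had no peak.

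The counts are too small to order the isotypes. The lowest share, tRNA-Gln with 6.67% (0.17 to 31.9%), and the highest, tRNA-Cys with 42.9% (9.90 to 81.6%), had overlapping intervals. In the joint list all 8 tRNA-Tyr and all 7 tRNA-Cys genes had a summit. For tRNA-Gln it was 6 of 15 genes and for tRNA-His 3 of 9, where 58.7% of all X-linked tRNA genes had one. Genes in a run can share a summit, so these counts are not independent and do not order the isotypes either.

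**Figure D3:**
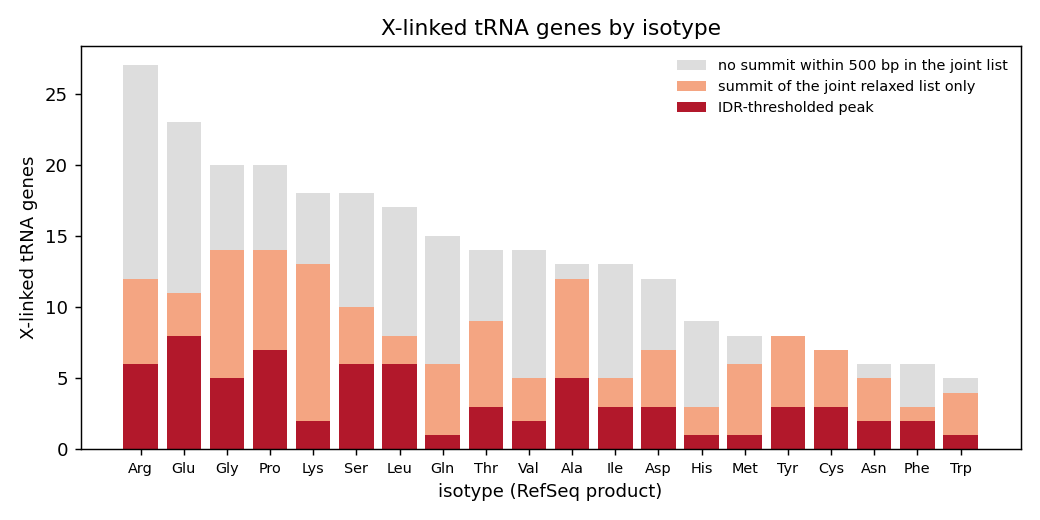
Number of X-linked tRNA genes of each isotype (y axis), with isotypes in order of their number of genes (x axis). Red marks genes with an IDR-thresholded peak, light orange those with a summit of the joint relaxed list only and grey those with neither; each isotype has at least 1 red gene, and tRNA-Cys and tRNA-Tyr have no grey part.

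Most families of identical sequence held copies with and copies without a peak. The 276 genes had 106 distinct sequences, and 33 of these were carried by 2 or more X-linked genes, 203 genes in all. In 26 of the 33 families some copies had a peak and some had none, with 51 of their 185 genes at a peak. Over all X-linked tRNA genes it was 70 of 276 (25.4%). A copy without a peak can still have a weaker summit within 500 bp, which may be shared with neighbours. In the family of 7 tRNA-Cys genes, 3 had a peak and all 7 a joint-list summit. Of these, K01A12.t2, K01A12.t4 and K01A12.t5 shared a single joint-list summit of 30.3, at 77, 136 and 370 bp. The lowest signal in that list was 28.6, and replicate 1 had no summit at these genes. F12D9.t6 was counted through a peak 272 bp away. In 6 families no X-linked copy had a peak, though some of these copies had a joint-list summit. In 1 family every X-linked copy was counted at a peak. These were the tRNA-Arg genes F41D9.t1 and F41D9.t2, which shared 1 peak with its summit 15 bp from the first and 323 bp from the second.

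The largest families followed this pattern. Of 13 identical tRNA-Pro genes, 4 had a peak, at 3 distinct peaks, the highest F46G11.t2 at 150.5. F46G11.t1 was counted through that same peak, 151 bp away, and its nearest joint-list summit was 40.8. Among the copies with no peak the highest joint-list value was 58.6, at C48C5.t3. Of 12 identical tRNA-Glu genes, 3 had a peak, the highest M02F4.t2 at 247, and the highest joint-list value without one was F52E10.t5 at 32.4. Of 11 identical tRNA-Gly genes, 3 had a peak, the highest M02F4.t1 at 247, and the highest joint-list value without one was ZK154.t4 at 31.7.

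The tRNA-Leu gene with 9 copies, all on X, had 2 copies at a peak. C04E7.t1 had a signal of 150.5, with 80.5 in replicate 1 and 74.9 in replicate 2. F14B8.t1 had 106, with 62.2 and 43.4. None of the other 7 copies had a summit in the joint list, 5 of them are lone genes, and the replicate lists held 1 weak summit each, 23.4 at D1009.t2 in replicate 1 and 13.6 at C05C9.t1 in replicate 2. The 50 bp before the gene had a GC content of 36% at C04E7.t1 and 32% at F14B8.t1. The other 7 copies ranged from 12 to 38%, and of these only F08F1.t1 at 32% and C48C5.t4 at 38% were above 30%. This family and the tRNA-Trp and tRNA-His families below were chosen after their values were seen.

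Of the 4 identical tRNA-Trp genes on X, known genetically as sites of amber suppressor mutations, only sup-7 had a peak. Its signal was 83.0 in the joint list, 56.5 in replicate 1 and 27.5 in replicate 2, and it lies in an intron of C03B1.2. The nearest joint-list summit was 37.9 at sup-28 and 32.5 at sup-21, and no list had a summit at sup-33. sup-28 and sup-33 form a run in an intron of trk-1, a receptor tyrosine kinase gene, and sup-21 stands alone.

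Genes with an identical copy anywhere in the nuclear genome had a peak more often, by count, than genes of unique sequence. The shares were 61 of 219 (27.9%, 22.0 to 34.3%) and 9 of 57 (15.8%, 7.48 to 27.9%), a difference of 12.1 points (−1.35 to 22.6). The interval includes 0 here but lies above 0 under several other settings, such as summits within 100 bp (0.57 to 22.9) and each summit counted for 1 gene (1.38 to 22.7). Among lone genes, with no other tRNA gene within 1000 bp, the peak shares were 41 of 113 (36.3%) and 4 of 28 (14.3%). Among the other X-linked genes they were close, at 20 of 106 (18.9%) and 5 of 29 (17.2%). On the autosomes they were 28.8 and 11.1% for lone genes, and 14.9 and 21.4% for the others. In the joint list the shares over all X-linked genes were 64.4% (57.6 to 70.7%) and 36.8% (24.5 to 50.7%). How reads that match several copies were placed is not given in the sources used here. With 50 bp on each side included, only F28H6.t3 and F28H6.t4 were identical to another gene, so nearly all genes had flanks of their own. The part of multiply matching reads in these values was not tested.

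Genes with a tRNA intron numbered 12 on X. Of these 5 had a peak (41.7%, 15.2 to 72.3%), against 65 of 264 without one (24.6%, 19.6 to 30.3%), with overlapping intervals. A joint-list summit was present at 11 of the 12 and at 151 of the 264 (57.2%). On the autosomes the peak shares went the other way, at 3 of 17 (17.6%) and 68 of 319 (21.3%). The autosomal joint-list shares were 58.8 and 56.7%.

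Lone genes had a peak more often, by count, than genes in runs. With a run defined by gaps of at most 1000 bp between neighbours, 141 genes stood alone and 135 formed 54 runs. A peak was present at 45 lone genes (31.9%, 24.3 to 40.3%) and at 25 genes in runs (18.5%, 12.4 to 26.1%), a difference of −13.4 points for genes in runs (−23.8 to −2.66). With gaps of at most 500 bp the difference was −8.20 points, and its interval of −18.5 to 2.88 includes 0. Near the 354 highest regions of replicate 1 the shares were 32.6 and 17.0%, and for replicate 2 they were 31.2 and 16.3%. In the joint list the difference was smaller, with 63.1% of lone genes and 54.1% of genes in runs. Among genes with an identical copy, 41 of 113 lone genes and 20 of 106 genes in runs had a peak. Among genes of unique sequence the counts went the other way, with 4 of 28 lone genes and 5 of 29 in runs.

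A run can share 1 peak, so whole loci were also counted. At least 1 peak was present at 14 of the 54 runs (25.9%) and at 45 of the 141 lone genes (31.9%), and the interval of the second share holds the first. Autosomal lone genes had 55 of 235 (23.4%) and autosomal genes in runs 16 of 101 (15.8%). By size, X-linked runs of 2 had 18 of 78 genes with a peak, and runs of 3 or 4 had 7 of 35. The 4 runs of 5 or more genes had 0 of 22, which allows a share of up to 13.6% by a floor of 3 counts or 15.4% by the exact interval. By run, 0 of 4 allows up to 60.2% by the exact interval. In the joint list 11 of those 22 genes had a joint-list summit.

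**Figure D4:**
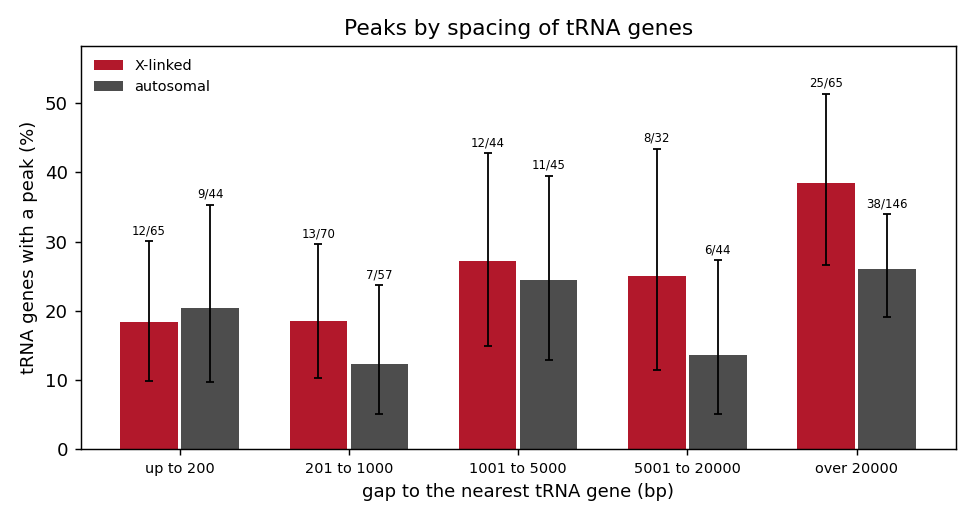
Share of tRNA genes with an IDR-thresholded peak (y axis, %) by the gap to the nearest tRNA gene (x axis, bp), for X-linked (red) and autosomal (grey) genes. Bars are shares, error bars 95% exact binomial intervals, and numbers the genes with a peak of all genes; the X-linked share was 18.5% for gaps up to 200 bp and 38.5% for the widest gaps.

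The largest runs held 6 genes each. F22F1.t2 to F22F1.t7 (chrX:8154445-8156707) mixed tRNA-Ser, tRNA-Asp, tRNA-Met and tRNA-Ile genes and had no peak, but 4 of its genes had a joint-list summit, up to 59.1. F28H6.t2 to F28H6.t5 (chrX:14135045-14137010) is the run of 6 identical tRNA-His genes printed above, and the joint list and replicate 1 had no summit there. Replicate 2 had 1 summit of 18.4, near F28H6.t4 and F28H6.t5. By contrast C06G1.t1, a lone gene of the same sequence, had one of the 10 highest peaks.

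The run with the most genes at a peak was F12D9.t6, F12D9.t1 and F12D9.t5, with tRNA-Cys, tRNA-Cys and tRNA-Arg genes. All 3 were counted through a single peak of 96.0 whose summit lay inside F12D9.t1, and the outer genes were 272 and 262 bp from it. H08J11, one of the other runs of 5 or more and named after its values were seen, holds 5 tRNA-Gln genes in an intron of ajm-1, an apical junction gene. Its highest joint-list summit was 64.0, and none of the 5 had a peak.

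Introns of protein-coding genes hosted 95 of the 276 X-linked tRNA genes (34.4%, 28.8 to 40.3%) and 189 of the 336 autosomal ones (56.2%, 50.8 to 61.6%). On X, 20 intronic genes had a peak (21.1%, 13.4 to 30.6%), as did 50 of the 181 others (27.6%, 21.2 to 34.7%). The difference of −6.57 points (−17.1 to 4.93) had an interval that includes 0. By orientation, 9 of 50 genes on the strand of the host had a peak (18%, 8.58 to 31.4%) and 11 of 45 on the other (24.4%, 12.9 to 39.5%), with overlapping intervals.

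Introns of 2 host genes held more than 1 tRNA gene with a peak, and in each case the genes shared 1 peak. These were him-4, described above, and unc-58, a potassium channel gene, with T06H11.t2 and T06H11.t3. The third tRNA gene in unc-58, T06H11.t1 (tRNA-Ser), had no summit in any list.

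The share of genes with a peak varied along X. In 5 stretches of equal length, from the left end, 12 of 27, 13 of 30, 15 of 89, 23 of 74 and 7 of 56 tRNA genes had a peak. The first 2 together had 43.9% (30.7 to 57.6%) and the other 3 had 20.5% (15.4 to 26.5%). Near the 354 highest regions the shares were 43.9 and 20.1% in replicate 1, and 38.6 and 20.1% in replicate 2. Genes were also more often alone in the first 2 stretches (64.9 against 47.5%). Among lone genes only, 18 of 37 had a peak in the first 2 stretches and 27 of 104 in the rest, and in runs the counts were 7 of 20 and 18 of 115. The grouping of the stretches was made after their values were seen.

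The words of the internal promoter were present at like shares of genes with and without a peak, with overlapping intervals. On the gene's strand, the B box word GGTTCGA was present in 45 of the 70 genes with a peak (64.3%) and in 132 of the 206 without (64.1%). Over all nuclear tRNA genes 64.5% held it, and 0 of 612 windows of the same length 2000 bp upstream did. The A box word GGCNNAG, searched in the first 30 bases, was present in 15 of 70 (21.4%, 12.5 to 32.9%) and 29 of 206 (14.1%, 9.63 to 19.6%), against 18.6% of all tRNA genes and 0.82% of the windows. TTTT in the 50 bp after the gene was present at 70 of 70 and 203 of 206, against 98.9% of all tRNA genes and 50.7% of windows. A word match describes letters only, and the printed F15G9.t2 lacks GGTTCGA and shares the peak of F15G9.t1, which has it.

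Base composition before the gene was richer in GC at genes with a peak, by median. The median GC content of the 50 bp before the gene was 46% at genes with a peak (26 to 62%) and 38% at genes without (12 to 60%). It was 58.3% within the gene in both sets, and 25 and 26% in the 50 bp after it. Among lone genes the medians before the gene were 46 and 40%, and in runs 42 and 38%. On the autosomes they were 48 and 44%. Against the 354 highest regions of each replicate, the medians were 46 and 38% for replicate 1 and 45 and 38% for replicate 2.

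In bands of GC content before the gene, the share of X-linked genes with a peak was 4 of 43 (9.30%, 2.59 to 22.1%) up to 30% GC. It was 15 of 105 (14.3%, 8.22 to 22.5%) from 31 to 40%, and 34 of 94 (36.2%, 26.5 to 46.7%) from 41 to 50%. Above 50% it was 17 of 34 genes, with an interval of 32.4 to 67.6%. On the autosomes the 4 shares were 3.57, 12.9, 26.7 and 27.4%. Near the 354 highest regions of replicate 1 the X-linked shares were 6.98, 15.2, 36.2 and 47.1%, and in replicate 2 the counts were 4 of 43, 15 of 105, 32 of 94 and 15 of 34. The part of GC-dependent recovery in sequencing was not tested.

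**Figure D5:**
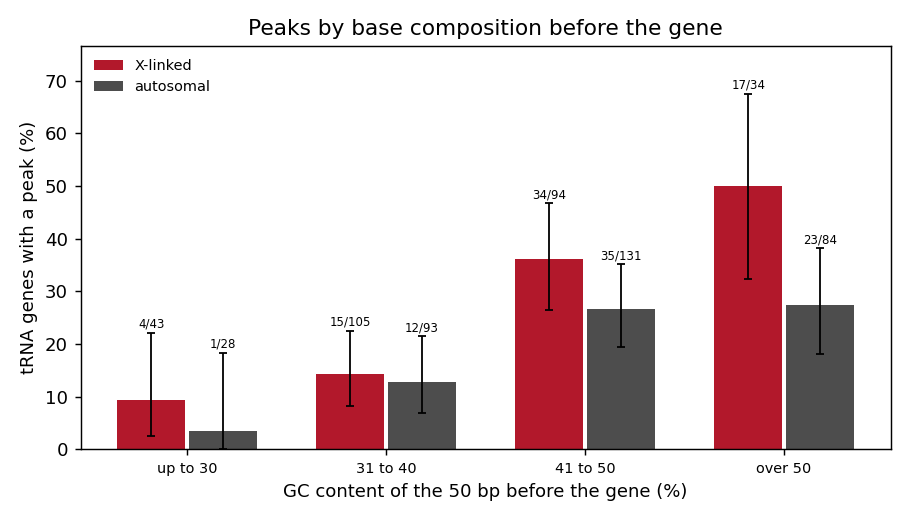
Share of tRNA genes with an IDR-thresholded peak (y axis, %) by the GC content of the 50 bp before the gene (x axis, %), for X-linked (red) and autosomal (grey) genes. Bars are shares, error bars 95% exact binomial intervals, and numbers the genes with a peak of all genes; on X the share was 9.30% in the lowest band and 36.2% from 41 to 50%.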

How the data were processed

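The authors deposited lists of enriched regions for NPAX-4 ChIP-seq in 2 biological replicates. Per the deposited file descriptions, each replicate's alignments, set against a common control, gave a relaxed list, both replicates together gave another, and a final list keeps regions past an irreproducible discovery rate. The aligner, the peak caller and that rate were not given in the sources used here. The control was not analysed here. The deposited signal per region is on a scale that is not stated, so it was used within a list only. The deposited −log10 q values were used in no test. The files give no read counts, so depth is unknown.

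The 4 lists on ce11 were used. All 354 thresholded regions were the 354 of highest signal in the joint list. Genes came from Ensembl release 115 (WBcel235), and sequences were read from that genome. Isotypes and symbols came from RefSeq, which gave a product for 607 of 612 nuclear tRNA genes. Coordinates are 1-based. Gene lengths, gaps, introns, identical copies and words were computed with Python 3.11.15, numpy 2.4.6, scipy 1.17.1 and matplotlib 3.10.9, and the assignment of summits was tested on simulated data. A host intron is one of a protein-coding gene on either strand.

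With a single group and genes that share peaks, no p-value was computed. Shares carry 95% exact Clopper-Pearson intervals over genes, and intervals of differences between shares were combined from these by the square-and-add method of Newcombe. Members, lists and the rule for named genes were chosen with earlier results of these data known. That rule took the 10 highest X-linked genes, the 3 lowest with and 3 highest without a peak, the 3 highest autosomal genes, the largest runs and identical families, the highest member of each isotype and hosts of at least 2 genes with a peak. The stretches of X and the GC bands were added after other values were seen. No aminoacyl-tRNA synthetase or RNA polymerase III gene matched by name on X.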

Additional observations from a re-analysis of the deposited data

How the results depend on the processing

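Of 75 alternative values for 9 results, 68 kept their direction and stayed within the range set for a like value. The share of X-linked genes with a peak was 16.7% for the 177 regions of higher signal. For those regions the excess of X over the autosomes was 8.63 points, with an interval above 0. With each summit counted for 1 gene the excess was 1.73 points, with an interval that includes 0. The joint-list share was 46.0% with summits within 100 bp, 51.8% within 250 bp, 67.0% within 1000 bp and 50.4% where the region had to overlap the gene. The ratio of X-linked to autosomal median signal was 1.07 among the regions of higher signal. The difference between genes with and without an identical copy had an interval above 0 with summits within 100 bp (13.3 points) or within 1000 bp (14.3), region overlap (13.8), replicate 1 alone (13.8) and each summit counted once (13.7). It was −25.5 points when 50 bp on each side had to match, but only 2 genes then have such a copy. The interval of the difference between genes in runs and lone genes included 0 with summits within 1000 bp (−9.69 points) and with gaps of at most 500 bp (−8.20). With the 354 highest regions of 1 replicate in place of the thresholded list, the share with a peak was 23.9 to 25%. No paired analysis was possible because all samples belong to one group. Unknown depth, and 2 replicates, limit the precision.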
